A study of Mus musculus with 6 samples.

Results

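Contractile genes of smooth muscle and of myofibroblasts were followed in cells sorted as CD45-negative from mouse lungs, untreated or after aspiration of silica. The set was a list of 10 genes (Acta2, Actg2, Acta1, Myh11, Tagln, Cnn1, Des, Lmod1, Myocd and Mylk), out of 16440 genes tested on the same arrays. Each gene was found through the RefSeq name of its probes. Each had 1 probe, and all 10 probes were well above background on all 6 arrays, so no gene of the set was lost to the filter on dim probes.

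Smooth muscle cells wrap the airways and blood vessels of the lung, and contract when myosin light chain kinase switches on smooth muscle myosin that pulls on actin filaments. Fibroblasts that turn into myofibroblasts during fibrosis build the same alpha smooth muscle actin into stress fibres, usually without the whole smooth muscle programme. Many of these genes are switched on by serum response factor (SRF) bound to CArG boxes in their promoters, together with the cofactors myocardin or the myocardin-related transcription factors.

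The study used Ccr2KO mice (strain B6.129S4-Ccr2tm1Ifc/J, which carry a targeted allele of the chemokine receptor gene Ccr2) and wild-type mice (WT, strain C57BL/6J), aged 7 to 9 weeks when the experiments began. Mice of either genotype were sampled 28 or 40 days after aspirating silica, or untreated, which the labels call day 0, and no vehicle group was among the samples analysed here. Perfused lungs were digested, red cells and silica were removed on a Percoll gradient, and the CD45-negative cells left after magnetic sorting gave the RNA. Each of the 6 groups gave 1 one-colour Agilent array of RNA pooled from 3 biological replicates.

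With 1 array per group there were no replicates, so every p-value below measures what a model left unexplained, and not the spread between mice. In the main fits this was an additive model of genotype and day (2 residual degrees of freedom). The fit of genotype by silica instead took days 28 and 40 of a genotype as its replicates (2 residual degrees of freedom). Its SE therefore counts the change between those days as noise. All changes are log2 differences between arrays, after each array's log2 signal was lowered by its own 75th percentile. Between 58.2 and 64.4% of probes were well above background, the 75th percentile lay between 793 and 1179 intensity units, and no spot was saturated. All 6 arrays shared 1 slide. Its row 1 held both untreated arrays and the Ccr2KO day 28 array, and its row 2 held the other 3 silica arrays. Ccr2 itself read −5.07, −1.51 and −3.64 in Ccr2KO cells (untreated, day 28, day 40), against 0.09, 1.38 and −1.70 in WT cells, and was lower in Ccr2KO cells on each day. The sources used here do not place its probe relative to the targeted part of the gene. Ptprc, the gene of CD45, was well above background on all 6 arrays although the sort removed CD45-positive cells. In such mixed cells, a change in the number of cells of a type and a change in RNA per cell cannot be told apart.

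The promoters of the actin genes are shown because these genes gave the largest increases of the set and because the CArG box is the best known element of the set. RefSeq promoter windows (build GRCm38.p6, from 250 bases before to 50 bases after the start site) were at hand for 6 of the 10 genes: Acta2, Acta1, Cnn1, Des, Lmod1 and Mylk. Capitals mark CArG boxes, in the strict form with only A or T between the outer CC and GG, or with 1 of the 6 inner bases replaced. Acta2 lies at chr19:34255324-34255623 on the minus strand and Acta1 at chr8:123894726-123895025 on the minus strand, both written 5′ to 3′ along the gene.
Acta2: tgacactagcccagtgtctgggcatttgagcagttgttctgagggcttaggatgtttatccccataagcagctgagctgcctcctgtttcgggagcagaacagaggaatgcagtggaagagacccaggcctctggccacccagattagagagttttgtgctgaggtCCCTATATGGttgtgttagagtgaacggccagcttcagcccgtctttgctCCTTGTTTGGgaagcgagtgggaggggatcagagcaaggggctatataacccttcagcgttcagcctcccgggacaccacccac
Acta1: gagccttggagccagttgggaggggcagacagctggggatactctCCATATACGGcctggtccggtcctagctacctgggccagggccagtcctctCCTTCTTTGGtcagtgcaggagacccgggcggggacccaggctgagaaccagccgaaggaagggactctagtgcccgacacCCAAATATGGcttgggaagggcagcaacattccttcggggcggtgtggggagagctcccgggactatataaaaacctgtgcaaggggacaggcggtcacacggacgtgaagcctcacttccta
The Acta2 window held 2 boxes, CCCTATATGG beginning at base −84 from the start site and CCTTGTTTGG at base −34, each with 1 inner base replaced. The Acta1 window held 3, CCATATACGG at base −205 and CCTTCTTTGG at base −154, each with 1 inner base replaced, and the strict CCAAATATGG at base −73. Among 32851 promoter windows of this length, 1.63% held a strict box, 9.98% a box with at most 1 inner base replaced, and 0.822% held at least 2 such boxes (both strands searched). The windows of Cnn1, Des, Lmod1 and Mylk held none. CATTCC, the MCAT element read by TEAD factors, was in the windows of Acta2, Acta1, Lmod1 and Mylk and in 14.7% of all windows (either strand). These matches describe the letters of the windows and show no binding.

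After silica the contractile genes split. The 3 actin genes Acta2, Actg2 and Acta1 and the actin-binding gene Tagln rose between 1.51- and 2.25-fold over the mean of days 28 and 40, the smooth muscle myosin gene Myh11 fell 1.67-fold, and Cnn1, Des, Lmod1, Myocd and Mylk did not pass the test. Thus 4 members rose and 1 fell of 10, in an additive limma fit over all genes with Benjamini-Hochberg adjusted p below 0.05. Of all 16440 genes, 19.8% passed in either direction, 10.5% upward and 9.28% downward. The median change of the 10 members was 0.13, against −0.01 over all genes. The plot of signal by day gives all 60 readings of the set.

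**Figure D1:**
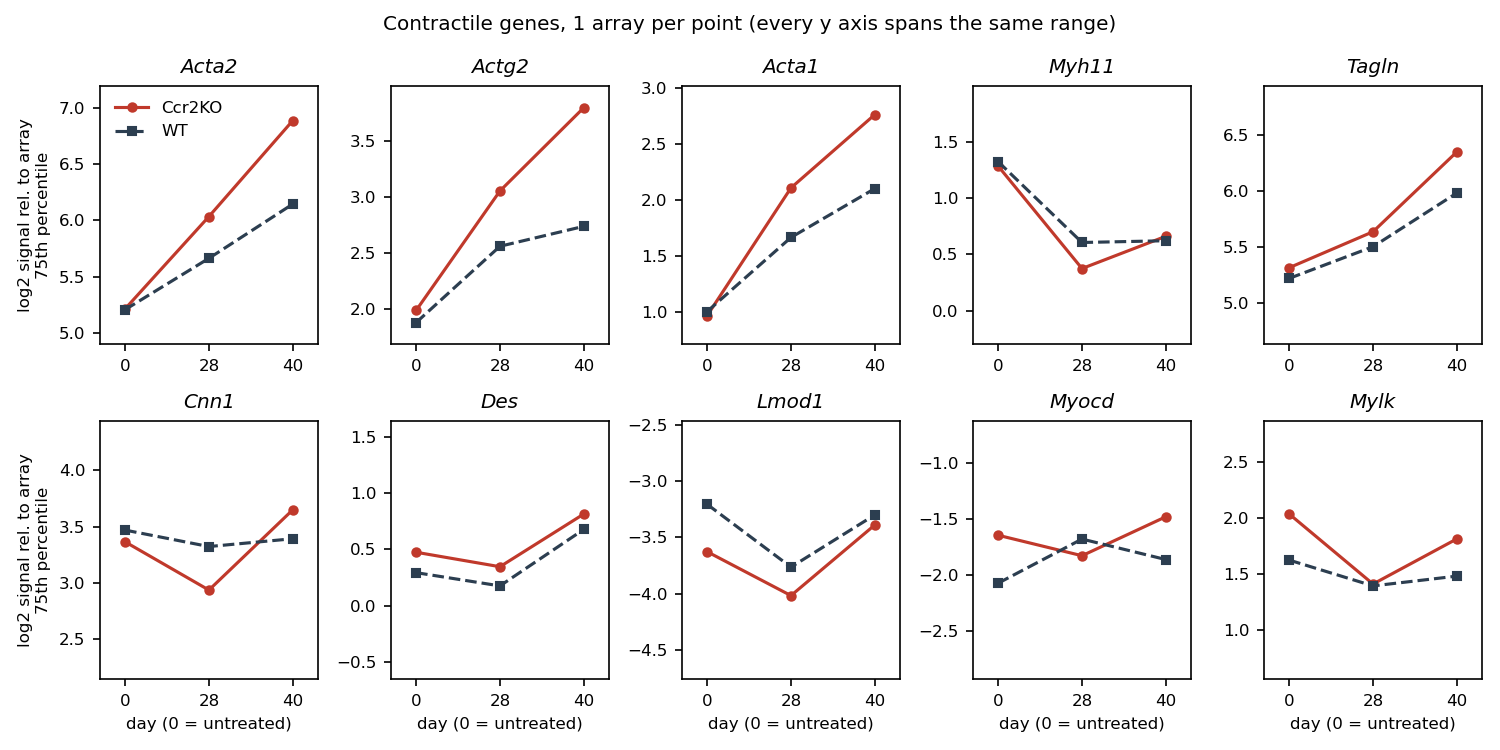
Log2 signal relative to the array's 75th percentile (y) on days 0 (untreated), 28 and 40 (x) for the 10 contractile genes, with 1 array per point, Ccr2KO in red circles and WT in dark squares. All y axes span the same range; Acta2, Actg2, Acta1 and Tagln lay higher on all 4 silica arrays than on either untreated array, and Myh11 lay lower.

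Acta2, which encodes alpha smooth muscle actin, read 5.21, 6.03 and 6.89 in Ccr2KO cells (untreated, day 28, day 40) and 5.21, 5.66 and 6.15 in WT cells. All 4 silica arrays lay above both untreated arrays, and Ccr2KO day 40 was the highest. The fitted rise after silica was 0.97 ± 0.18 (log2 change ± SE, limma adjusted p = 0.0331), or 1.96-fold. By day it was 0.64 ± 0.21 at day 28 (limma adjusted p = 0.112), which did not pass, and 1.31 ± 0.21 at day 40 (limma adjusted p = 0.0302), or 2.48-fold. Against its own untreated array the day 40 signal was 3.2-fold higher in Ccr2KO cells and 1.92-fold higher in WT cells.

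Actg2, the gamma actin of enteric smooth muscle, read 1.99, 3.05 and 3.79 in Ccr2KO cells and 1.88, 2.56 and 2.74 in WT cells, in the same order of days. Every silica array was again above both untreated arrays, with Ccr2KO day 40 highest and WT day 28 the lowest of the 4. Its rise was 1.10 ± 0.22 after silica (limma adjusted p = 0.0396), 2.15-fold, and 1.33 ± 0.25 at day 40 (limma adjusted p = 0.0421). The day 28 value of 0.87 ± 0.25 did not pass (limma adjusted p = 0.0921).

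Acta1, known as the alpha actin of skeletal muscle, read 0.97, 2.11 and 2.76 in Ccr2KO cells and 1.01, 1.67 and 2.10 in WT cells. The silica arrays lay above the untreated ones without overlap. Acta1 had the largest fitted change of the set, 1.17 ± 0.18 after silica (limma adjusted p = 0.0222), 2.25-fold, and 1.44 ± 0.20 at day 40 (limma adjusted p = 0.0238), 2.72-fold. At day 28 it was 0.90 ± 0.20 (limma adjusted p = 0.0544). The actin genes encode nearly identical proteins, and the probe sequences are not given in the sources used here, so cross-hybridisation between them was not tested. Actc1, the cardiac alpha actin and the remaining muscle actin, fell by 1.47 ± 0.33 after silica (limma adjusted p = 0.0488), with 3.63, 1.74 and 1.36 in Ccr2KO cells and 3.83, 3.39 and 2.57 in WT cells.

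Myh11, the heavy chain of smooth muscle myosin and a marker of mature smooth muscle, went the other way. It read 1.29, 0.37 and 0.66 in Ccr2KO cells and 1.33, 0.61 and 0.62 in WT cells. The silica arrays were all below the untreated ones, and days 28 and 40 differed little in WT cells. It fell by 0.74 ± 0.11 after silica on the log2 scale (limma adjusted p = 0.0213), by 0.82 ± 0.12 at day 28 (limma adjusted p = 0.026) and by 0.66 ± 0.12 at day 40 (limma adjusted p = 0.0409). It was the only member that passed at day 28. The within-array log2 difference of Acta2 minus Myh11 was 1.71 higher in the silica arrays than in the untreated ones, a 3.28-fold divergence of the pair. The pair was chosen with its values known, so this is a description with no test.

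Tagln, the gene of the actin-binding protein transgelin (SM22), rose less than the actins. It read 5.32, 5.64 and 6.35 in Ccr2KO cells and 5.22, 5.50 and 5.98 in WT cells. The silica arrays did not overlap the untreated ones, although WT day 28 stood close above the Ccr2KO untreated array. The rise was 0.60 ± 0.11 after silica (limma adjusted p = 0.0327), 0.30 ± 0.13 at day 28 (limma adjusted p = 0.178) and 0.90 ± 0.13 at day 40 (limma adjusted p = 0.024), the last being 1.86-fold.

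The other filament and actin-binding genes did not pass in any silica contrast. Cnn1, which encodes the actin-binding protein calponin 1, read 3.36, 2.93 and 3.65 in Ccr2KO cells and 3.47, 3.32 and 3.39 in WT cells. The highest and the lowest reading of Cnn1 were both from Ccr2KO silica arrays, and its fitted change was −0.09 ± 0.16 (limma adjusted p = 0.711). Lmod1, the gene of leiomodin 1, which nucleates actin filaments in smooth muscle, was the dimmest member, at −3.63, −4.02 and −3.39 in Ccr2KO cells and −3.21, −3.76 and −3.30 in WT cells. Its lowest readings were at day 28 in either genotype, and the fitted change was −0.20 ± 0.11 (limma adjusted p = 0.27). Des, the gene of the muscle intermediate filament protein desmin, read 0.47, 0.35 and 0.82 in Ccr2KO cells and 0.29, 0.17 and 0.68 in WT cells. Both day 40 arrays were above, and both day 28 arrays below, the untreated array of their genotype, which left a fitted change of 0.12 ± 0.09 (limma adjusted p = 0.392).

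Neither the kinase nor the transcriptional cofactor passed. Mylk, which encodes myosin light chain kinase, read 2.03, 1.41 and 1.81 in Ccr2KO cells and 1.62, 1.39 and 1.48 in WT cells. Each silica array was below the untreated array of its genotype, but Ccr2KO day 40 was above WT untreated, and the fitted change was −0.30 ± 0.13 (limma adjusted p = 0.165). Myocd, the gene of myocardin, read −1.65, −1.83 and −1.48 in Ccr2KO cells and −2.07, −1.68 and −1.86 in WT cells. The silica arrays of Myocd lay between its lowest and highest untreated readings in 3 of 4 cases, and the fitted change was 0.15 ± 0.16 (limma adjusted p = 0.55).

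**Figure D2:**
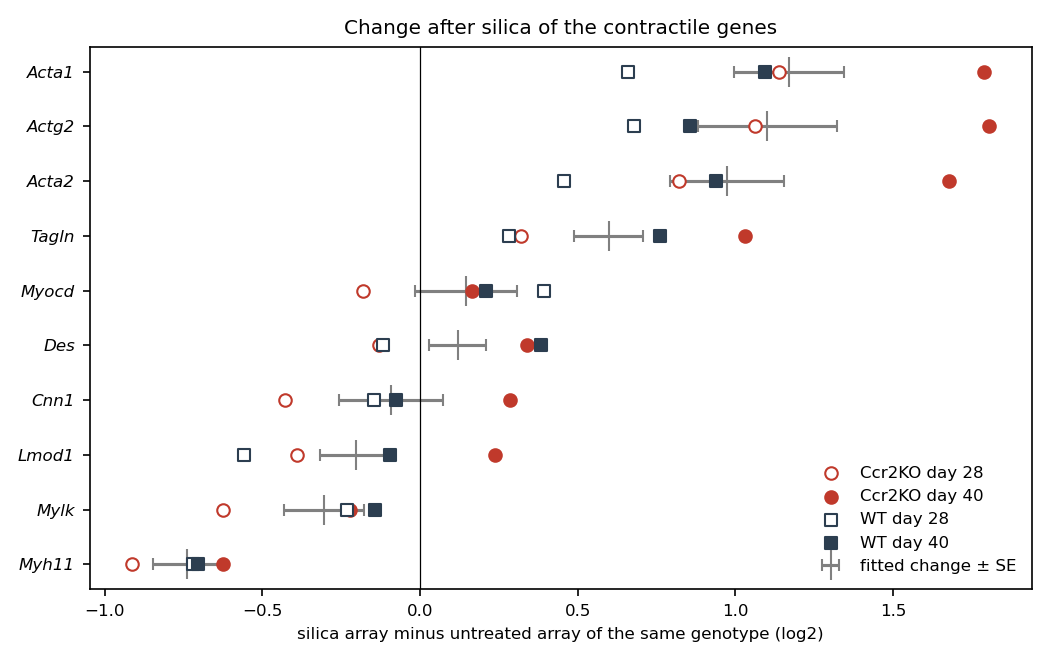
Change of each contractile gene after silica (x, log2 difference between a silica array and the untreated array of its genotype), with Ccr2KO in red circles, WT in dark squares, day 28 open and day 40 filled. Grey bars are the fitted change ± SE; Acta1, Actg2, Acta2 and Tagln lie right of 0 on all 4 comparisons, Myh11 and Mylk lie left of 0 on all 4, and the remaining genes straddle 0.

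Counted over arrays, 5 of 10 members had silica and untreated arrays that did not overlap, against 45% of all genes, with 4 of 10 above (21.1% of all genes) and 1 of 10 below (24%). The share that did not overlap in either direction was therefore near that of all genes. By day, 1 of 10 members passed at day 28, falling, when 17.2% of all genes passed (9.18% upward, 8.01% downward). At day 40, 4 rose and 1 fell, when 15.2% of all genes passed (8.52% upward, 6.73% downward). The day contrasts share the untreated arrays. The calls did not outlast all settings: with the slide row as a block none of the 5 passed (0 of 16440 genes did), with values of 0.97 for Acta2, 1.03 for Actg2, 1.27 for Acta1, 0.53 for Tagln and −0.91 for Myh11 and limma adjusted p between 0.275 and 0.441. The only silica comparison within a slide row is Ccr2KO day 28 minus Ccr2KO untreated, at 0.82 for Acta2, 1.06 for Actg2, 1.14 for Acta1, 0.32 for Tagln and −0.91 for Myh11. Without the WT day 28 or the Ccr2KO day 28 array 0 of 16440 genes passed after silica, so these fits say nothing about the members. Without Ccr2KO untreated or Ccr2KO day 40 none of the members passed, while 1612 and 1499 genes did. Without WT untreated or WT day 40, 3 members passed, all of them rising, among 1909 and 1959 genes. Myh11 and Tagln passed after silica in none of the fits that left out an array. Their changes there were −0.80 to −0.68 and 0.52 to 0.68.

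At day 40 against day 28 no member passed the test, and most readings, once scaled by the array's 75th percentile, were higher at day 40. Of the 10 members, 0 passed against 2.73% of all genes, while 4 members and 2658 of all genes had an unadjusted limma p below 0.05. The fitted difference was positive for all 10, with a median of 0.47 against 0.10 over all genes (0.12 against −0.25 without scaling between arrays), and day 40 was above day 28 in both genotypes for 9 of 10, against 47.6% of all genes. Myocd was the exception, with −0.18 in WT cells and 0.35 in Ccr2KO cells. This count depended on the scaling. In unscaled intensity only Acta2, Acta1, Tagln, Des and Lmod1 were higher at day 40 in both genotypes. Actg2, Cnn1, Mylk and Myocd were then lower at day 40 in WT cells and higher in Ccr2KO cells. Myh11 was lower in both, from 1764 to 1351 in WT cells and from 1264 to 1254 in Ccr2KO cells. The largest fitted differences were 0.67 ± 0.21 for Acta2 (limma adjusted p = 0.252), 0.59 ± 0.13 for Tagln (limma adjusted p = 0.136) and 0.55 ± 0.13 for Lmod1 (limma adjusted p = 0.173). Leukocyte genes moved the opposite way over the same days: 11 of 12 pan-leukocyte markers fell at day 40 against day 28, with a median of −2.46. Their summed signal, in multiples of the array's 75th percentile, was 48.4 at day 40 and 214 at day 28 in Ccr2KO cells, and 63 at day 40 and 298 at day 28 in WT cells. None of the 12 was below background on all arrays. The part of this shift in the day 40 against day 28 values was not tested.

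Ccr2KO and WT cells were then compared. Untreated cells of the genotypes read nearly alike for the actins, and the Ccr2KO readings stood higher after silica, but no member passed. The Ccr2KO minus WT difference of Acta2 was 0.01 untreated, 0.37 at day 28 and 0.74 at day 40. For Actg2 the differences were 0.11, 0.49 and 1.06 on the same days, and for Acta1 −0.04, 0.44 and 0.66. Tagln had 0.10, 0.13 and 0.37, and Myh11 −0.04, −0.23 and 0.04. At day 40 the Ccr2KO signal was 2.08-fold that of WT for Actg2, 1.67-fold for Acta2 and 1.58-fold for Acta1. The day 40 arrays of both genotypes lay in slide row 2 and the untreated arrays in row 1, while the day 28 arrays lay in different rows.

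**Figure D3:**
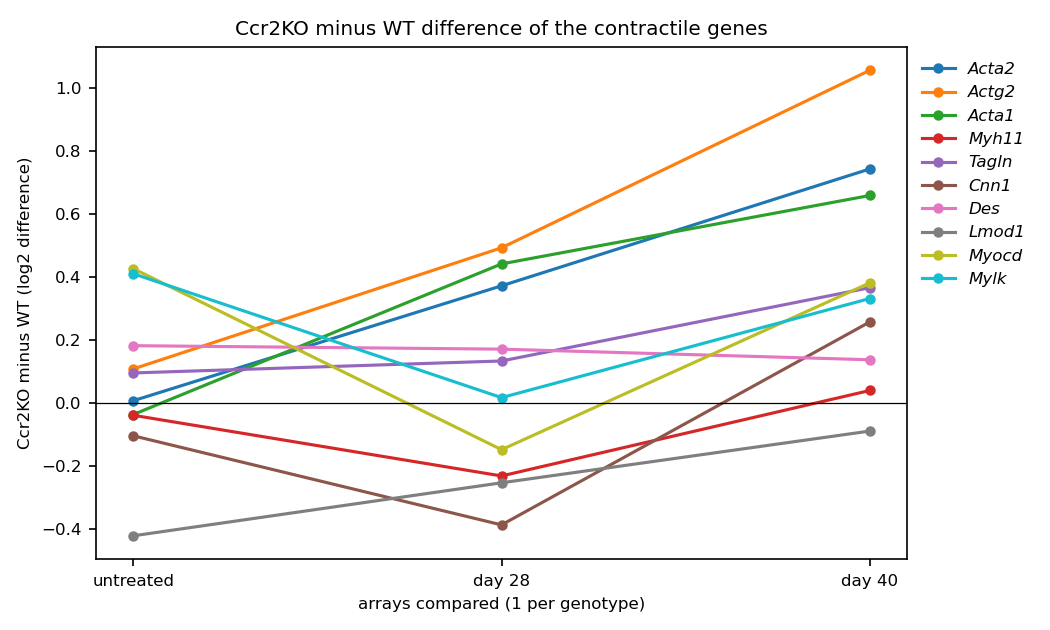
Ccr2KO minus WT log2 difference (y) between the untreated, day 28 and day 40 arrays (x), 1 line per contractile gene and 1 array per genotype and day. The lines of Actg2, Acta2 and Acta1 stand at 1.06, 0.74 and 0.66 at day 40 and between −0.04 and 0.11 in untreated cells; with 1 array per group the lines carry no error bars.

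Over all days the fitted Ccr2KO minus WT difference was 0.55 ± 0.21 for Actg2 (limma adjusted p = 0.544), 0.37 ± 0.17 for Acta2 (limma adjusted p = 0.583) and 0.35 ± 0.17 for Acta1 (limma adjusted p = 0.586). Without either day 40 array these were 0.30, 0.19 and 0.20, without either untreated array 0.77, 0.56 and 0.55, and without scaling between arrays 0.33, 0.15 and 0.13. None of the 10 members and none of all genes (0%) passed in limma, and 0 members and 1526 genes had an unadjusted p below 0.05. The median of the members was 0.21, against 0.03 over all genes (−0.02 against −0.20 without scaling between arrays). The silica response in Ccr2KO cells exceeded that in WT cells by 0.55 ± 0.65 for Acta2, 0.67 ± 0.52 for Actg2 and 0.59 ± 0.53 for Acta1 in the fit of genotype by silica (limma adjusted p = 1 for each). Without Ccr2KO day 40 these values were 0.12, 0.30 and 0.26, without WT day 28 0.31, 0.58 and 0.37, and without Ccr2KO day 28 0.98, 1.04 and 0.91. Without WT day 40 each gene's value lay between the lowest and the highest of these. There too 0 of 16440 genes passed (0%), and 618 genes but 0 members had an unadjusted p below 0.05.

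Ccr2KO day 40 gave the highest of 6 readings for 7 of 10 members, and for 28.3% of all genes. Ccr2KO lay above WT on days 28 and 40 for 6 of 10 (30.7% of all genes) and on all 3 days for 5 of 10 (19.6%), and below WT on all 3 days for 1, Lmod1 (13.3%). The change after silica was larger in Ccr2KO than in WT cells on both days for 5 of 10 members, against 32.1% of all genes. Of 12 pan-leukocyte markers 0 passed between the genotypes, with a median Ccr2KO minus WT difference of −0.72. Their summed signal was 61.7, 214 and 48.4 in Ccr2KO cells and 126, 298 and 63 in WT cells (untreated, day 28, day 40), and their part in the genotype differences was not tested.

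Other parts of the contractile machinery gave a mixed picture after silica. Of 25 partners of the contractile filaments, 5 rose, 3 fell and 17 did not pass, with a median of 0.19. The genes that rose were Actn1, the actin cross-linker alpha-actinin 1 (0.85 ± 0.14), Pdlim7, a PDZ and LIM domain protein of stress fibres (0.74 ± 0.12), the tropomyosin genes Tpm1 (0.73 ± 0.11) and Tpm4 (0.54 ± 0.11), and Cald1, caldesmon (0.71 ± 0.12). Those that fell were Tns1, the focal adhesion protein tensin 1 (−1.43 ± 0.18), Synm, the intermediate filament protein synemin that pairs with desmin (−1.28 ± 0.18), and Synpo2, an actin-bundling protein (−0.89 ± 0.15). Limma adjusted p of these 8 genes lay between 0.0168 and 0.0384. Probes of the same gene disagreed for Tpm1, where 2 of 5 rose and the 5 ranged from −0.20 to 0.78, and for Synpo2, where 1 of 3 fell and the 3 ranged from −0.89 to 0.32. All 5 probes of Synm fell. Myl9, the regulatory light chain of smooth muscle myosin, changed by 0.19 ± 0.17 (limma adjusted p = 0.447).

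Of 21 genes of contraction signalling, which start or relax contraction, 2 rose, 7 fell and 12 did not pass, with a median of −0.35 (9.28% of all genes fell). Receptors for contractile signals were among those that fell: Adra1a, an alpha-1 adrenergic receptor (−2.62 ± 0.51), Agtr1a, the angiotensin II receptor (−1.43 ± 0.13), and Chrm2, a muscarinic receptor (−0.86 ± 0.16). Other receptor genes of the list did not pass. Adra1a was well above background on 3 of 4 silica arrays, and its change was −1.61 with another background correction (normexp). Also among those that fell were Ppp1r14a, the inhibitor CPI-17 of myosin light chain phosphatase (−1.64 ± 0.20), and Gucy1b1 (−0.89 ± 0.09) and Gucy1a1 (−0.65 ± 0.09), the subunits of the nitric oxide receptor guanylate cyclase. The seventh was Ppp1r12b, a myosin phosphatase subunit (−0.56 ± 0.11). Subunits of the calcium-activated potassium channel rose, Kcnma1 by 1.87 ± 0.27 and Kcnmb1 by 0.46 ± 0.10. A second Kcnma1 probe changed by 0.37 and did not pass. Limma adjusted p of these 9 genes lay between 0.0105 and 0.0426.

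Transcription factors and targets of the SRF pathway showed no common direction. Of 18 genes 2 rose, 3 fell and 13 did not pass, with a median of −0.11. Prrx1, a mesenchymal homeobox factor (1.39 ± 0.16), and Ccn2, the matricellular protein CTGF (0.80 ± 0.16), rose. Hey2, a Notch effector (−1.24 ± 0.24), Foxf1, a forkhead factor of lung mesenchyme (−0.66 ± 0.12), and Gata6 (−0.53 ± 0.10) fell, with limma adjusted p between 0.0142 and 0.0417 for the 5 genes. Foxf1 had a further probe at −0.64 that did not pass. Srf itself changed by −0.32 ± 0.11 (limma adjusted p = 0.107), Mrtfa by 0.29 ± 0.09 (limma adjusted p = 0.0972) and Mrtfb by 0.05 ± 0.15 (limma adjusted p = 0.841). Among ligands that drive myofibroblast differentiation, Tgfb1 rose by 0.60 ± 0.10 (limma adjusted p = 0.0286) and Tgfb3 by 0.50 ± 0.10 (limma adjusted p = 0.0379), and Tgfb2 changed by 0.21 ± 0.11 (limma adjusted p = 0.227).

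**Figure D4:**
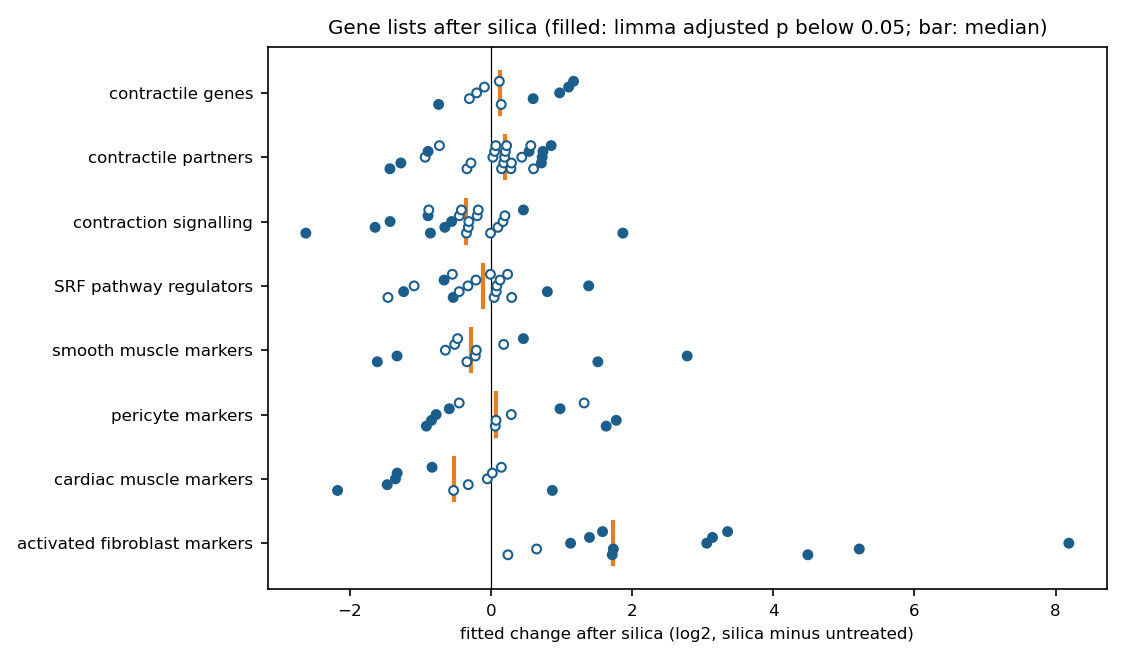
Fitted log2 change after silica (x) of every tested gene of the contractile set, the 3 pathway lists and the cell type lists for smooth muscle, pericytes, cardiac muscle and activated fibroblasts (rows), filled where the limma adjusted p was below 0.05, with an orange bar at each list's median. Medians ran from −0.53 for cardiac muscle markers to 1.74 for activated fibroblast markers, and the contractile genes lay at 0.13.

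Markers of the cell types that use contractile genes were read beside them. Of 14 smooth muscle markers outside the set 12 were tested, since Pln and Casq2 were not well above background on any array. Of these 3 rose, 2 fell and 7 did not pass, with a median of −0.28. Itga8, an integrin subunit (−1.33 ± 0.24), and Npnt, its ligand nephronectin (−1.61 ± 0.28), fell, while Itih4 (1.52 ± 0.16) rose. Kcnmb1, in this list as well, rose, and Olfr558 was at least 6.87-fold higher after silica, since it was not well above background on either untreated array (limma adjusted p = 0.0137). That bound holds for the main background correction only, and its log2 change was 1.10 with normexp. The summed signal of the 12 ran from 75.4 to 118 on the silica arrays and from 81.6 to 103 on the untreated arrays. These sums leaned on Itih4, the brightest of the 12 on each silica array. It read 4.11 and 4.31 untreated, and 5.32 to 6.11 after silica. A sum without Itih4 was not computed, and the fitted change was positive for 4 of the 12.

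Pericyte markers also split, with 3 of 12 rising, 4 falling and 5 not passing (median 0.07). Postn, the matricellular protein periostin (1.78 ± 0.29), Kcnj8, a potassium channel subunit (1.63 ± 0.12), and Pdgfrb, the PDGF receptor beta (0.98 ± 0.18), rose. Trpc6, a cation channel (−0.91 ± 0.11), Higd1b (−0.84 ± 0.09), Cox4i2 (−0.78 ± 0.14) and Ndufa4l2 (−0.59 ± 0.11) fell. Activated fibroblast markers moved together, with 11 of 13 rising and none falling (median 1.74), among them the BMP antagonist Grem1 (8.19 ± 0.48), the matricellular gene Thbs2 (4.49 ± 0.25) the metalloproteinase inhibitor Timp1 (3.35 ± 0.14), the TGF-beta binding protein gene Ltbp2 (3.14 ± 0.09) and the tenascin gene Tnc (3.06 ± 0.24). Lrrc15 was at least 37.2-fold higher with the main background correction, being not well above background on either untreated array. Its log2 change was 5.22, and 3.20 with normexp. The summed signal of the fibroblast list ran from 562 to 899 on the silica arrays and from 161 to 182 on the untreated arrays, and its part in the actin values was not tested.

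Muscle of other kinds was also read, because Acta1 and other contractile genes are also expressed in heart and skeletal muscle. Of 13 cardiac markers 11 were tested, 1 rose (Hspb7, a small heat shock protein, 0.87 ± 0.16), 5 fell and 5 did not pass, with a median of −0.53. Sln, the gene of the calcium pump inhibitor sarcolipin (−2.17 ± 0.22), Actc1, Myh6, the alpha myosin heavy chain (−1.35 ± 0.11), Myl7, the atrial myosin light chain (−1.33 ± 0.18), and Tnnt2, cardiac troponin T (−0.83 ± 0.14), fell. Sln was well above background on 3 of 4 silica arrays, and its change was −1.04 with normexp background correction. The summed cardiac signal was 6.57 to 14.1 on the silica arrays and 16.6 to 19.2 on the untreated arrays. Of 12 skeletal muscle markers 7 were tested and 4 were not well above background on any array (among Ckm, Myh4, Myl1, Mylpf and Myog, which were not tested), and the 7 had a summed signal of 0.707 to 1.12 on the silica arrays and 0.64 to 1.09 on the untreated arrays. In that list Tnnt3 fell and 6 did not pass, and some of the 7 were well above background on only 3 of 6 arrays. The part of skeletal muscle in the Acta1 values was not tested.

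Of the remaining cell type lists, all 8 platelet markers fell (median −2.68), 6 of 8 mesothelial, 3 of 9 epithelial and 2 of 8 endothelial markers fell with none rising, and 3 of 12 pan-leukocyte markers rose. By day, 11 of these 12 rose at day 28, and 3 fell and none rose at day 40. The summed platelet signal was 2.79 to 3.91 on the silica arrays and 12.1 to 12.2 on the untreated arrays. The part of these cells in the contractile values was not tested.

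**Figure D5:**
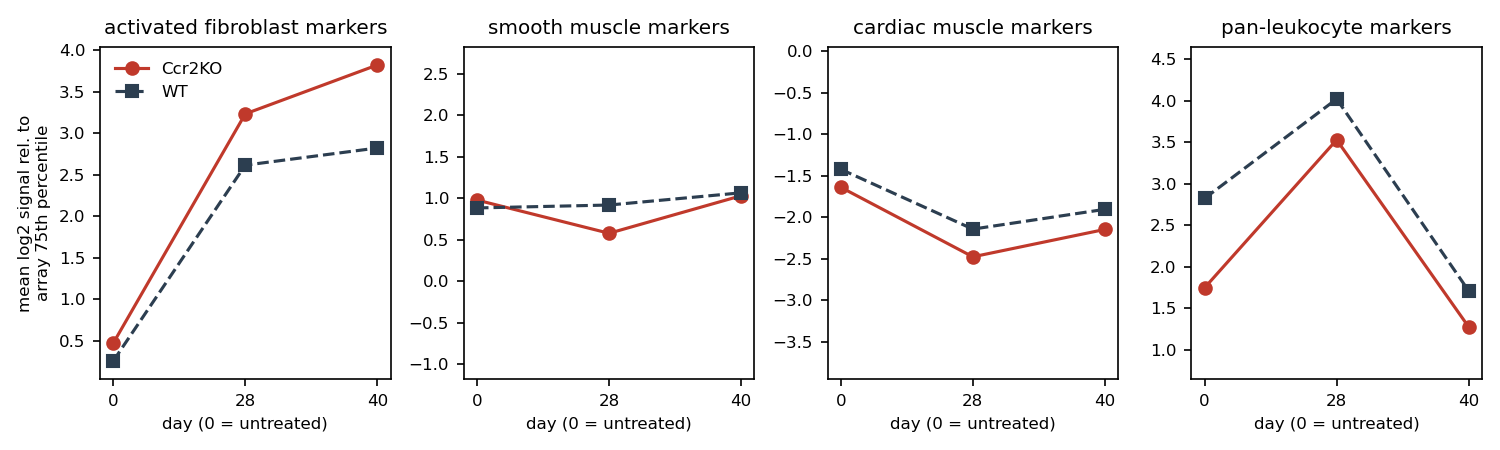
Mean log2 signal relative to the array's 75th percentile (y) of the tested activated fibroblast, smooth muscle, cardiac muscle and pan-leukocyte markers on days 0 (untreated), 28 and 40 (x), with 1 array per point, Ccr2KO in red circles and WT in dark squares and all y axes spanning the same range. Fibroblast markers were higher on the silica arrays, leukocyte markers peaked at day 28, and smooth muscle markers had means from 0.58 to 1.07. The smooth muscle mean includes Olfr558, which was not well above background untreated (−6.47 and −7.01) and read −4.52 to −2.97 after silica. A mean without it was not computed.

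The genes with the most similar profiles were sought for each member by the root mean square difference of centred log2 signals over the 6 arrays, among 14925 genes well above background on all of them. For Acta2 these were the secretoglobin gene Scgb3a1 (0.049), Mdfi, an inhibitor of myogenic factors (0.075), and Kcne1l (0.085). Mdfi was also closest to Actg2 (0.081), followed by the matrix proteoglycan gene Lum (0.091) and Slc7a2 (0.107), an amino acid transporter, which was again among the 3 closest to Acta1 (0.093) after Scara3 (0.057) and Myo7a (0.082). Among those of Tagln were Pcdhb9 (0.053) and Mpzl2 (0.062). For Myh11 they were Vamp2 (0.045), Yae1d1 (0.060) and Irx5 (0.061). Des had Fzd8 (0.052), a Wnt receptor, Mylk had the syndecan gene Sdc2 (0.040), and Myocd had Slc25a44 (0.042) and the cytokine gene Il11 (0.049) as closest genes. Cnn1 was nearest to Nup214 (0.069), and Lmod1 to Smad7 (0.085), an inhibitor of TGF-beta signalling. With 6 arrays and this many genes, such closeness describes these arrays only.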

How the data were processed

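Per the file headers, the authors scanned Cy3 arrays (design 028005) on a G2600D scanner and obtained background-subtracted, detrended intensity with Feature Extraction 11.0.1.1 (protocol GE1_1100_Jul11). The authors' deposited table held the log2 of this intensity for 30574 probes, unscaled between arrays, and R 2.15.1 is named in the submitters' processing notes. Control spots were removed, outlier spots set to missing, repeated spots averaged, and log2 intensity lowered by each array's 75th percentile. RefSeq names gave 27509 of 55681 probes exactly 1 symbol. Of these, a probe had to be well above background on 2 or more arrays, and the brightest stood for its gene. The array annotation used mm9, so its positions are not printed. For genes not above background on one side, a dim array was set to the dimmest signal called well above background on it, or to the probe's own if higher, which gives folds as "at least". These folds hold for the main background correction only. Tests used limma 3.58.1 in R 4.3.3 (lmFit, eBayes) with genotype and day as terms, or genotype by silica, and were tested on simulated data. Tables were read with data.table (version 1.17.8).

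All members are named. Of the pathway, smooth muscle, pericyte, fibroblast and cardiac and skeletal muscle lists, called genes are named, up to 6 per direction by size, the other cell type lists are given as counts, and to these were added Ccr2, Ptprc and the Tgfb genes, a few further list genes chosen after their values were seen (Myl9, Srf, Mrtfa, Mrtfb, Ppp1r12b), and the 3 most similar profiles per member, some of which are not reported here. The members, lists and tests were chosen with earlier results of these data known. The spread between mice is unknown because RNA was pooled.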

Additional observations from a re-analysis of the deposited data

How the results depend on the processing

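Of the 10 members, 5 passed after silica. This count was 3 with quantile normalization (3222 of all genes), 2 without scaling between arrays (4202), 2 without the filter on dim probes (1877 of 20862), 0 with the slide row as a block (0), 1 with days 28 and 40 as 1 level (2032), and 0 to 3 when each array was left out. Counted over probes the 5 became 3, 2, 2, 0 and 1 under these settings in the same order, and 0 to 3 without an array. Of all probes 4003 passed in the main fit, and 3837, 5267, 2236, 0 and 2568 under these settings. At day 28 the count of 1 (2827 of all genes) became 3 with normexp background correction (on median signals, offset 50), where 3915 genes passed. It was 2 with quantile normalization (2793) and 2 in the authors' table (3250 of 14931). It was 2 with probes above background on all 6 arrays (3400 of 14936) and 2 with an intensity trend and robust prior (3812). It was 0 without the filter (1422 of 20862), 0 with the slide row as a block (0), and 0 to 1 without an array, where some fits passed no gene at all. At day 40 the 5 (2506 of all genes) became 4 with quantile normalization (2420), 3 without scaling (5293) and 1 without the filter (1236 of 20862). They became 0 with the slide row as a block (0), and 0 to 3 without an array, where some fits passed no gene at all. Fits with the block or without an array had 1 residual degree of freedom in place of 2, and the fit with days 28 and 40 as 1 level had 3. For the other settings the cause was not tested. With days 28 and 40 as 1 level Myh11 passed (limma adjusted p = 0.027). Over genes, neither Myh11 nor Tagln passed after silica in any fit without an array. Over all genes, 1722 rose and 1526 fell after silica, and 1276 rose and 2926 fell without scaling, which moved the median of all genes to −0.19. The fitted change of Des turned to −0.063 without scaling. That of Myocd turned to −0.036 without scaling, −0.27 with the slide row as a block and −0.0088 without WT untreated (−0.0088 to 0.30 over the arrays left out). That of Cnn1 turned to 0.034 without WT day 40 and 0.024 without Ccr2KO day 28 (−0.22 to 0.034). Over the same settings, values after silica were followed for called list genes (up to 6 per list and direction) and for the Tgfb genes. They kept direction and call status in 675 cases, kept direction but lost the call in 399, and reversed in 0. With the slide row as a block, without WT day 28 and without Ccr2KO day 28, 0 of 16440 genes passed. No call could be kept in those fits. The Acta2 minus Myh11 difference stayed between 1.51 and 1.90. The counts for day 40 against day 28, for genotype and for the difference of responses stayed at 0 in the settings run. The difference of responses without either untreated array was not run, being undefined. No paired analysis was possible because each group had 1 array.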
